A study of Mus musculus with 18 samples.

Results

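The 10 transcription factors described here, Foxl2, Nr5a1, Nr5a2, Wt1, Gata4, Gata6, Lhx9, Runx1, Nr2f2 and Nr0b1, act in the somatic cells of the gonad, that is, in the granulosa, theca, stromal and surface cells that surround the oocytes. They were chosen by gene symbol, and all 10 were found among the 30172 gene symbols of the deposited tables. Their levels were measured by RNA-seq in whole ovaries of wild type female F1 C57BL/6J mice in 6 groups of 3 libraries, 18 libraries in all. The dams of the F1-HHcy groups ate a high-methionine diet (3% methionine), a model of hyperhomocysteinemia, and the dams of the F1-Control groups ate a normal diet. The labels start the diet 4 weeks before mating (the feeding period before mating in the paper is longer) and continue it through gestation and lactation, the sires ate a normal diet, and the pups themselves received no treatment. Ovaries were collected on postnatal day 3, 7 or 21 (Pd3, Pd7 and Pd21). Pd3 and Pd7 form batch 1 and Pd21 forms batch 2 in the labels, so that age and batch cannot be told apart between Pd21 and the earlier days. Whether a library holds 1 pup or several, and whether pups shared a litter, is not given in the sources used here, so the p-values measure the spread between these libraries.

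The early ovary is built from a bipotential gonad, whose surface cells need Wt1, Lhx9, Gata4 and Nr5a1 to form and to survive. In the ovary, Foxl2 and Runx1 then hold pre-granulosa cells to the female fate, and Foxl2 keeps down genes of the testis pathway. Nr5a1 and Nr5a2 are orphan nuclear receptors that bind the same DNA motif and switch on genes of steroid synthesis and of the growing follicle. Nr0b1 is a repressor that binds Nr5a1. Gata4 and Gata6 are zinc finger factors that work with Nr5a1 at promoters such as that of the inhibin alpha subunit. Nr2f2 marks interstitial and stromal cells, from which theca cells arise. The days studied span the end of primordial follicle assembly, the first wave of growing follicles, and the prepubertal ovary.

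On the log2 scale, the member that varied most over the libraries was Nr5a2, which lies on the reverse strand at chr1:136842562-136960448 (GRCm38.p6). RefSeq lists more than 1 start for it, and the deposited tables give a single value per gene, so the starts cannot be told apart. The 250 bases before each listed start are shown because this member carries the largest diet difference, with capitals marking matches to the GATA motif (AGATAA on either strand), the motif of the members Gata4 and Gata6. The windows lie at chr1:136960449-136960698 and chr1:136953631-136953880 on the reverse strand and overlap no annotated exon.
Nr5a2, upstream start: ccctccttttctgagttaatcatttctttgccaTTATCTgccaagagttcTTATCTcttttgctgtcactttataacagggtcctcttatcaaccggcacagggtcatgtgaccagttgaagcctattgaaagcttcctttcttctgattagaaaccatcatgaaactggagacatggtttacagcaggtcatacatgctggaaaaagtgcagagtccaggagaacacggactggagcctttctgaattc
Nr5a2, downstream start: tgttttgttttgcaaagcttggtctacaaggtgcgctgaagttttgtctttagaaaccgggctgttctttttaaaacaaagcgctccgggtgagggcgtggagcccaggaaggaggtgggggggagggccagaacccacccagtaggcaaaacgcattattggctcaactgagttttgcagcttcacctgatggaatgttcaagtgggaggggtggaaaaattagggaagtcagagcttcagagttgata
The upstream window holds 2 GATA matches, which begin 217 and 200 bases before the start, and the downstream window holds none. Among 32851 promoter windows of the same length, 9.99% held at least 1 match and 0.938% held at least 2. The windows were also searched on both strands for CAAGGTCA (NR5A), GTAAACA (FOX), TGTGGTT (RUNX) and CTAATTA (LHX), and none of these letters was present in either window. A match is a description of the letters and not a measured site.

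The deposited values were FPKM, fragments scaled by gene length and library size, which allow levels to be compared between genes. At 33630641 to 39399281 fragments per library, the lowest member value still rested on 210 fragments (Nr0b1), which gives a counting error of 6.9%, and every other member had at least 622 in each library. In F1-Control at Pd3, Wt1 had the highest mean level (152 ± 19 FPKM, SD, n = 3), followed by Gata4 (74.6 ± 7.0 FPKM) and Foxl2 (55.7 ± 3.9 FPKM), and the ranges of these 3 genes did not overlap with each other. Foxl2 and Gata6 overlapped next, and the lowest 5 members, Lhx9, Runx1, Nr2f2, Nr0b1 and Nr5a2, had means of 7.62 to 12.1 FPKM, with each overlapping its neighbour. At Pd21, Foxl2 led in F1-Control (103 ± 22 FPKM), Nr5a2 had moved from the last place to the second (89.5 ± 16 FPKM), and Foxl2, Nr5a2, Wt1 and Gata4 overlapped with their neighbours in that order. The members are transcribed in several ovarian cell types, and in a whole ovary fewer cells of a type and less RNA per cell cannot be told apart.

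**Figure D1:**
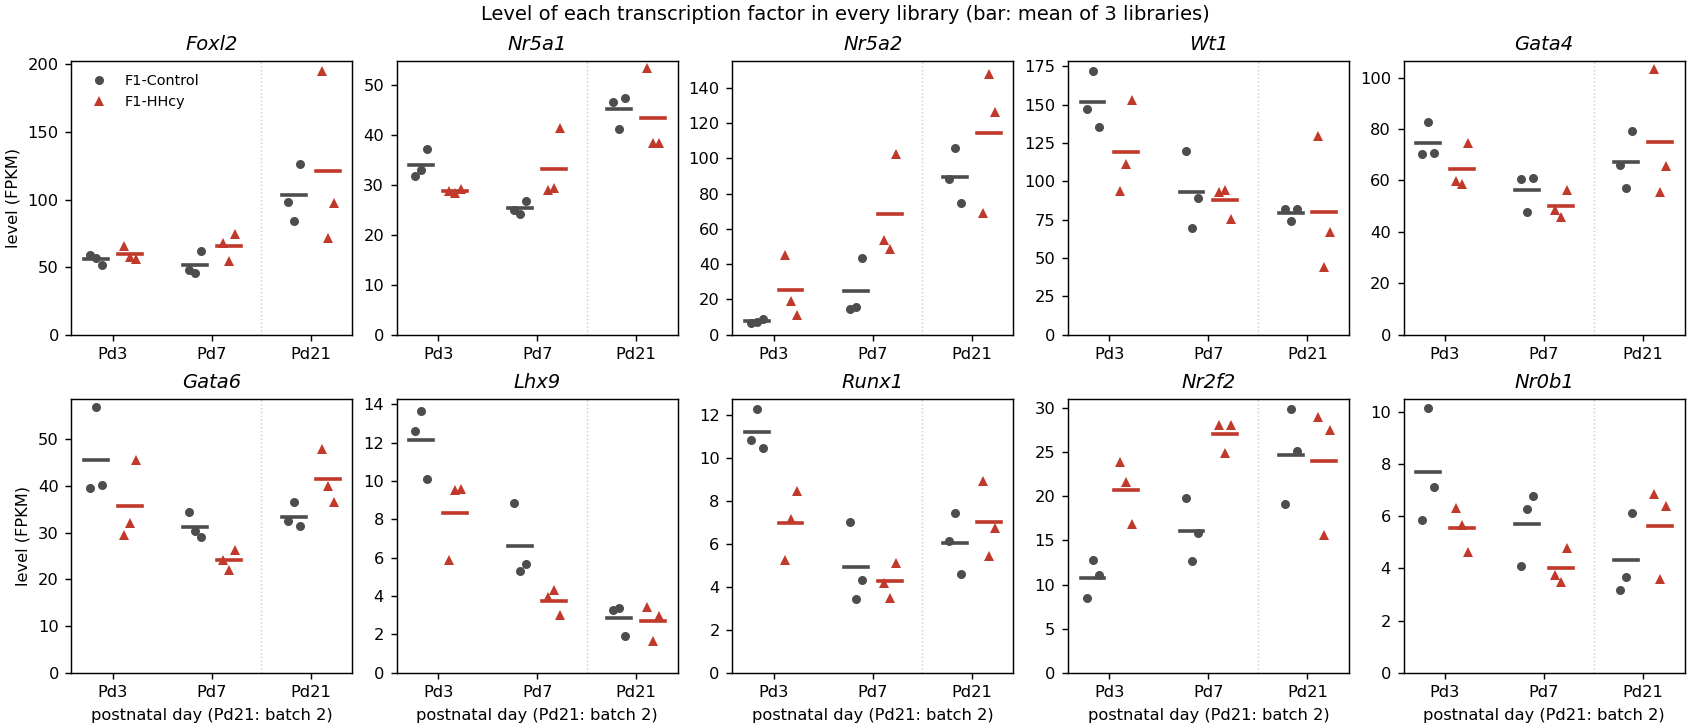
Level in FPKM (vertical axes, from 0) of each of the 10 transcription factors in every library, by postnatal day, for F1-Control (grey circles) and F1-HHcy (red triangles), with bars at the mean of 3 libraries. Nr5a2 and Nr2f2 lay higher in all F1-HHcy libraries than in all F1-Control libraries at Pd3 and Pd7, and at Pd21 the diets overlapped for all 10 genes.

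The first question was whether the maternal diet changed these factors on each day. A gene was called when the adjusted p of limma (Benjamini-Hochberg over all genes tested) was under 0.05, on the log2(FPKM + 1) scale, which understates the change of low genes, and all 10 members passed the filter of 1 FPKM in at least 3 libraries. At Pd3, 1 of 10 members was called, Nr2f2, which was higher, beside 3.07% of 13277 genes called in either direction. At Pd7, 2 of 10 were called, Nr5a2 and Nr2f2, both higher, beside 11.9% of 13299 genes. At Pd21, limma called none of the 10, none had an unadjusted p under 0.05, and limma-voom called none either, beside 2.23% of 13350 genes. By ranges alone, at Pd3 the diets did not overlap for 5 members, 2 higher and 3 lower in F1-HHcy, beside 27.9% of genes, and at Pd7 for 5 members, 3 higher and 2 lower, beside 39.0%. At Pd21 the diets overlapped for all 10 members, where 10.5% of genes did not overlap. Over the 10 members the median log2 fold change was -0.29 (Pd3), -0.10 (Pd7) and 0.12 (Pd21), beside -0.03, -0.0015 and -0.01 over all genes tested. By the criterion of the study's volcano plots, which asks for an unadjusted p under 0.05 and a difference of over 0.58 on the log2 scale, Nr5a2, Nr2f2 and Runx1 passed at Pd3 (9.74% of genes did), Nr5a2, Nr2f2 and Lhx9 at Pd7 (16.4% of genes), and no member at Pd21 (5.14% of genes).

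**Figure D2:**
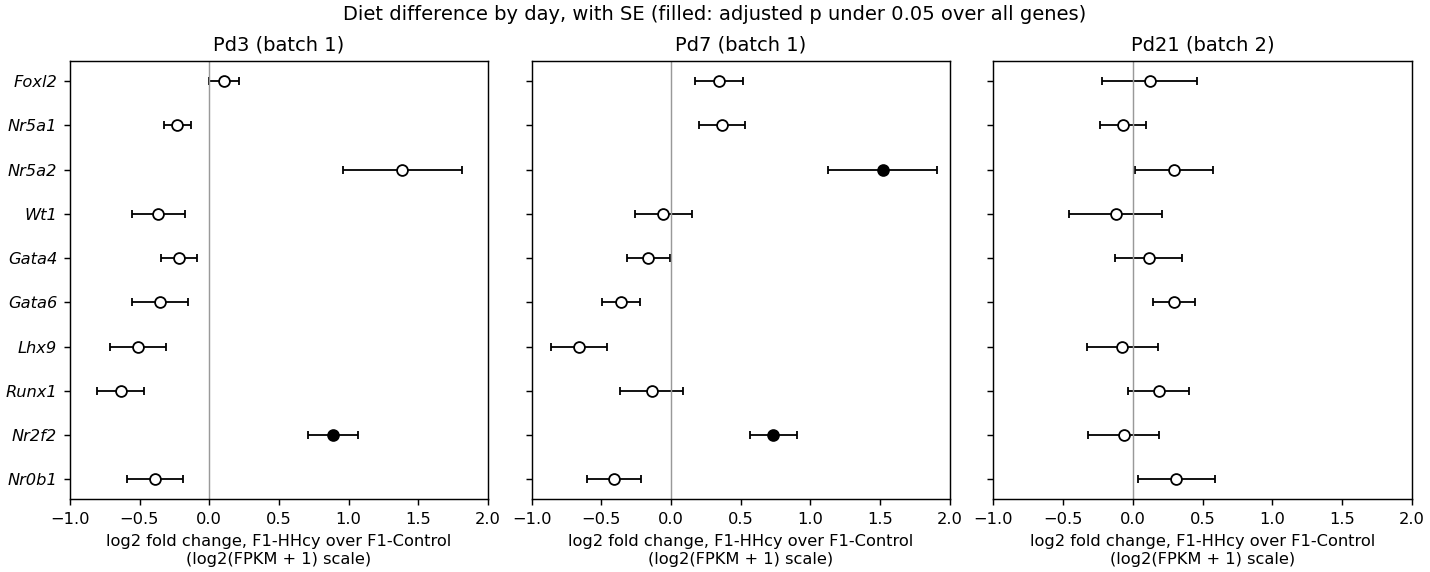
Log2 fold change of F1-HHcy over F1-Control (horizontal axes, log2(FPKM + 1) scale) with SE for each member, in 1 panel per day, with filled points for an adjusted p under 0.05 over all genes. Nr2f2 was filled at Pd3 and Pd7 and Nr5a2 at Pd7, and no point was filled at Pd21.

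Nr5a2 (also known as Lrh-1), a nuclear receptor of granulosa cells that is needed for ovulation, had the largest diet difference of the 10 at both early days. At Pd3 its levels were 6.67, 7.23 and 8.96 FPKM in F1-Control and 45.1, 19.1 and 11.1 FPKM in F1-HHcy. The groups did not overlap, but the third F1-HHcy library lay close to the controls. The log2 fold change was 1.39 ± 0.43 (SE) and missed the threshold (adjusted p = 0.119, limma). At Pd7 its levels were 14.8, 16.0 and 43.6 FPKM in F1-Control and 53.8, 48.9 and 102 FPKM in F1-HHcy. All F1-HHcy libraries were above all controls, and the third library of each diet was its highest. The gene was 1.52 ± 0.39 higher on the log2 scale, a call (adjusted p = 0.0363, limma) that 4 of the 6 fits leaving out 1 library lost. The lowest of these estimates, 1.19 without the third F1-HHcy library, had an adjusted p of 0.112, and the other lost calls were those without the first or the second control or the first F1-HHcy library (1.25, 1.30 and 1.65, adjusted p = 0.0898, 0.138 and 0.0594). In the 4 fits that lost the call 3.78% to 7.33% of all genes were called. At Pd21 its levels were 88.3, 106 and 74.6 FPKM in F1-Control and 69.0, 148 and 126 FPKM in F1-HHcy. The diets overlapped there, and the log2 fold change was 0.29 ± 0.28 (adjusted p = 0.9996, limma).

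Nr5a1 (steroidogenic factor 1, chr2:38692656-38714542), its relative in granulosa and theca cells, differed little between the diets and in opposite directions at the early days. At Pd3 it measured 31.8, 33.0 and 37.3 FPKM in F1-Control and 28.8, 28.4 and 29.2 FPKM in F1-HHcy, so that all F1-HHcy libraries were lower. At Pd7 it measured 25.1, 24.2 and 26.8 FPKM in F1-Control and 29.1, 29.4 and 41.5 FPKM in F1-HHcy, so that all F1-HHcy libraries were higher. Neither difference passed the test (log2 fold change -0.23 ± 0.10 with adjusted p = 0.227 at Pd3, and 0.36 ± 0.16 with adjusted p = 0.158 at Pd7, limma). At Pd21 the means were 45.2 ± 3.4 FPKM in F1-Control and 43.4 ± 8.7 FPKM in F1-HHcy.

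Since both receptors bind the same motif, their ratio within a library was computed, a pair chosen after the values were seen and therefore given without a test. In F1-Control at Pd3 there were 0.210, 0.219 and 0.241 FPKM of Nr5a2 per FPKM of Nr5a1, and in F1-HHcy 1.57, 0.670 and 0.381. At Pd7 the ratios were 0.592, 0.662 and 1.63 in F1-Control and 1.85, 1.66 and 2.46 in F1-HHcy. The diets did not overlap at either day, although the third control at Pd7 came close to the F1-HHcy libraries. At Pd21 the geometric means were 1.97 in F1-Control and 2.54 in F1-HHcy, and the libraries overlapped. Nr5a1 was thus the more abundant of the pair in each Pd3 control library, and Nr5a2 in each Pd21 library.

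**Figure D3:**
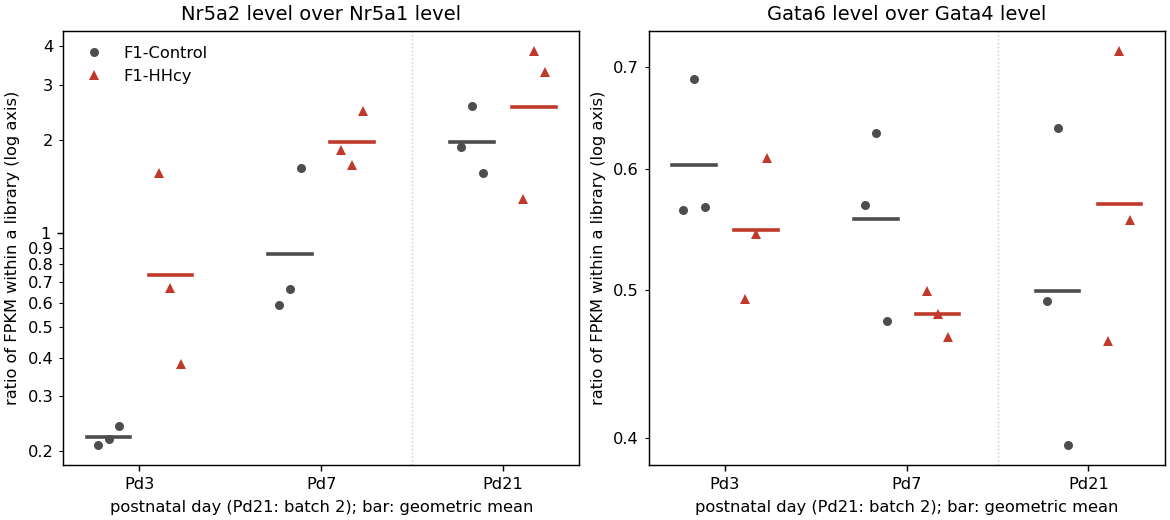
Ratio of the FPKM values of Nr5a2 to Nr5a1 (left) and of Gata6 to Gata4 (right) within each library on log axes, by day, for F1-Control (grey circles) and F1-HHcy (red triangles), with bars at the geometric mean. From Pd3 through Pd7 to Pd21, the geometric means of the first ratio were 0.223, 0.860 and 1.97 in F1-Control and 0.737, 1.96 and 2.54 in F1-HHcy, and the second overlapped between diets on each day.

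Nr0b1 (Dax1, chrX:86191775-86195947), the repressor that binds Nr5a1, was among the lowest members, at 3.17 to 10.2 FPKM over the 18 libraries. The diets overlapped on each day, and F1-Control and F1-HHcy had means of 7.71 ± 2.2 and 5.55 ± 0.85 FPKM at Pd3. The means were 5.71 ± 1.4 and 4.01 ± 0.69 FPKM at Pd7 and 4.33 ± 1.6 and 5.62 ± 1.8 FPKM at Pd21. The log2 fold changes of -0.39 ± 0.20 and -0.41 ± 0.19 at Pd3 and Pd7 did not pass the test (adjusted p = 0.292 and 0.182, limma).

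Nr2f2 (COUP-TFII, chr7:70351946-70366746), the factor of interstitial and theca precursor cells, was the only member called at both early days. At Pd3 it measured 8.51, 12.8 and 11.1 FPKM in F1-Control and 23.9, 21.6 and 16.8 FPKM in F1-HHcy. At Pd7 it measured 19.8, 12.6 and 15.9 FPKM in F1-Control and 28.1, 25.0 and 28.1 FPKM in F1-HHcy. On both days the lowest F1-HHcy library was above the highest control. The log2 fold change was 0.89 ± 0.18 at Pd3 (adjusted p = 0.0475, limma) and 0.73 ± 0.17 at Pd7 (adjusted p = 0.0242, limma). The Pd3 call was lost when any single library but the third F1-HHcy library was left out (estimates of 0.74 to 1.01, adjusted p = 0.121 to 0.219), and the Pd7 call when the second control or any F1-HHcy library was left out (0.58 to 0.79, adjusted p = 0.0523 to 0.0962). In those fits 0.00% to 0.646% of all genes were called at Pd3 and 3.78% to 5.57% at Pd7. At Pd21 it measured 19.1, 30.0 and 25.1 FPKM in F1-Control and 29.0, 15.6 and 27.6 FPKM in F1-HHcy, with a log2 fold change of -0.07 ± 0.26. Of its 8625 annotated exon bases, 643 overlap the antisense gene B130024G19Rik, and the counting setting for strand is not given in the sources used here, so reads of the pair cannot be told apart in that stretch. That antisense gene measured 2.81 ± 0.84 and 5.93 ± 1.8 FPKM at Pd3 and 8.04 ± 1.2 and 11.9 ± 3.2 FPKM at Pd7 in F1-Control and F1-HHcy, and its diet differences did not pass the test (adjusted p = 0.0935 and 0.132, limma).

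Foxl2 (chr9:98955607-98958126), which keeps granulosa cells from turning into their testis counterparts, was not called on any day. It ranged from 51.4 to 59.0 FPKM in F1-Control and from 56.1 to 66.0 FPKM in F1-HHcy at Pd3, and from 45.7 to 61.9 and from 54.9 to 74.7 FPKM at Pd7. The diets overlapped on both days (log2 fold change 0.10 ± 0.11 and 0.34 ± 0.17, adjusted p = 0.611 and 0.202, limma). At Pd21 the F1-HHcy libraries spread widely, at 195, 71.4 and 97.5 FPKM, around F1-Control at 98.3, 84.5 and 127 FPKM. Its antisense neighbour Foxl2os, named here after its values were seen, had means of 36.1 ± 19 FPKM in F1-Control and 84.5 ± 25 FPKM in F1-HHcy at Pd7 (log2 fold change 1.31 ± 0.37, adjusted p = 0.0473, limma). The libraries were at 34.6, 17.4 and 56.3 FPKM in F1-Control and 91.5, 105 and 57.1 FPKM in F1-HHcy, so that the third libraries were almost equal. Whether this call holds without single libraries was not examined. Foxl2os was not called at Pd3 (22.8 ± 3.9 and 41.3 ± 16 FPKM, 0.79 ± 0.25, adjusted p = 0.13) or Pd21 (11.6 to 24.7 and 10.3 to 66.8 FPKM, 0.35 ± 0.60, adjusted p = 0.9996). The pair shares 12 exon bases in the annotation.

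Runx1 (chr16:92601466-92826074), the other factor of pre-granulosa identity, was lower in all F1-HHcy libraries at Pd3 only. It measured 10.8, 12.3 and 10.5 FPKM in F1-Control and 5.23, 7.13 and 8.48 FPKM in F1-HHcy, a log2 fold change of -0.63 ± 0.17 that missed the threshold (adjusted p = 0.0868, limma). At Pd7 it measured 7.00, 3.44 and 4.29 FPKM in F1-Control and 4.18, 3.47 and 5.09 FPKM in F1-HHcy, and the diets overlapped (-0.14 ± 0.23, adjusted p = 0.703, limma). At Pd21 the means were 6.05 ± 1.4 and 7.03 ± 1.7 FPKM.

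Lhx9 (chr1:138825186-138848839), a LIM homeobox factor of the gonadal surface and early progenitors, was lower in all F1-HHcy libraries on both early days without being called. At Pd3 it measured 12.6, 13.7 and 10.1 FPKM in F1-Control and 5.86, 9.56 and 9.59 FPKM in F1-HHcy (log2 fold change -0.51 ± 0.20, adjusted p = 0.193, limma). At Pd7 it measured 8.87, 5.31 and 5.69 FPKM in F1-Control and 3.96, 4.30 and 3.01 FPKM in F1-HHcy (-0.66 ± 0.20, adjusted p = 0.0618, limma). At Pd21 the diets met at 2.85 ± 0.83 and 2.68 ± 0.93 FPKM. Lhx9 was thus the lowest member in both diets at Pd21, with Nr0b1 overlapping it in F1-Control.

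Wt1 (chr2:105126529-105173614), the zinc finger factor of the coelomic surface and of early granulosa cells, measured 147, 172 and 136 FPKM in F1-Control and 94.0, 111 and 153 FPKM in F1-HHcy at Pd3. The third F1-HHcy library lay inside the control range, and the difference of -0.36 ± 0.19 was not called (adjusted p = 0.295, limma). At Pd7 the means were 92.9 ± 25 and 87.5 ± 11 FPKM (-0.06 ± 0.20, adjusted p = 0.873, limma). At Pd21 the controls lay between 74.4 and 82.1 FPKM, inside the wider F1-HHcy range of 44.2 to 129 FPKM.

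Gata4 (chr14:63198914-63271712) and Gata6 (chr18:11052510-11085636), which share targets in granulosa and theca cells, were not called in any diet comparison. Gata4 had means of 74.6 ± 7.0 and 64.3 ± 8.8 FPKM at Pd3 and of 56.4 ± 7.4 and 50.1 ± 5.5 FPKM at Pd7 in F1-Control and F1-HHcy, and the diets overlapped (adjusted p = 0.363 and 0.49, limma). Gata6 was lower in all F1-HHcy libraries at Pd7, at 24.2, 22.0 and 26.2 FPKM beside 34.4, 30.4 and 29.0 FPKM in F1-Control. That log2 fold change was -0.36 ± 0.14 (adjusted p = 0.112, limma), and at Pd3 it was -0.35 ± 0.20 with overlapping groups (adjusted p = 0.344, limma). At Pd21 the Gata6 means were 33.4 ± 2.8 and 41.4 ± 5.9 FPKM (0.30 ± 0.15, adjusted p = 0.915, limma), and 1 F1-HHcy library fell inside the control range. The ratio of Gata6 to Gata4 within a library stayed between 0.396 and 0.718 over the 18 libraries and overlapped between the diets on each day.

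Some libraries weighed on several members at once. The third F1-HHcy library at Pd3 was the nearest of its group to the F1-Control mean for 9 of the 10 members. Without it, 4 of 10 members were called at Pd3, namely Nr2f2 (1.02), Nr5a2 (1.83), Wt1 (-0.56) and Runx1 (-0.77 on the log2 scale), with adjusted p values of 0.0055, 0.00652, 0.0245 and 0.011 (limma), and without any other single library none was. In the fit without that library 21.6% of 13049 genes were called, beside 3.07% with all libraries. The first F1-HHcy library at Pd21 had the highest level of its group for 9 of the 10 members and the lowest for the other, Nr5a2. How often these 2 libraries held such places over all genes was not counted, so the places are not shown to be particular to the members. No member was called at Pd21 when any single library was left out.

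Whether the diet difference itself changed with age was tested by the interaction. Between Pd3 and Pd7, limma called none of the 10, beside 0.514% of 13998 genes, 1 member had an unadjusted p under 0.05, and limma-voom called none either. That member was Nr5a1, whose diet difference was 0.59 ± 0.19 higher at Pd7 than at Pd3 (adjusted p = 0.167). Nr5a2 and Nr2f2 had interaction estimates of 0.13 ± 0.66 (adjusted p = 0.935) and -0.15 ± 0.26 (adjusted p = 0.798), so their early differences were not shown to differ between the days. Between Pd7 and Pd21, where day and batch cannot be told apart, none of the 10 was called by limma or by limma-voom, beside 3.89% of 14607 genes, and 3 had an unadjusted p under 0.05. Gata6 had the smallest p (0.66 ± 0.24, adjusted p = 0.144), followed by Nr2f2 (-0.80 ± 0.32, adjusted p = 0.184) and Nr5a1 (-0.44 ± 0.21, adjusted p = 0.258), and Nr5a2 had an estimate of -1.22 ± 0.63 (adjusted p = 0.296). The other members, Foxl2, Wt1, Gata4, Lhx9, Runx1 and Nr0b1 in both interactions and Gata6 in the first, had estimates between -0.22 and 0.72 with adjusted p values of 0.27 to 0.989. The call of Nr5a2 and Nr2f2 at Pd7 and its absence at Pd21 were therefore not shown to be different effects. The volcano plot criterion took in Nr5a1 in the first interaction (11.6% of genes passed) and Gata6 and Nr2f2 in the second (15.3% of genes passed).

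The change from Pd3 to Pd7, both in batch 1, was compared within each diet over the 12 libraries of these days. In F1-Control, 3 of 10 members fell, Runx1, Lhx9 and Wt1, and none rose, beside 12.6% of 13998 genes called in either direction. Runx1 went from a mean of 11.2 ± 0.98 to 4.91 ± 1.9 FPKM (log2 fold change -1.09 ± 0.22, adjusted p = 0.0114, limma). Lhx9 went from 12.1 ± 1.8 to 6.62 ± 2.0 FPKM (-0.80 ± 0.21, adjusted p = 0.0331, limma). Wt1 went from 152 ± 19 to 92.9 ± 25 FPKM (-0.73 ± 0.21, adjusted p = 0.0420, limma), and its adjusted p was 0.0648 with the replicate number as a block, the numbers being paired here by the rule given with the methods. With that block 2 of 10 members were called, Runx1 and Lhx9, beside 12.9% of genes. For Runx1, Lhx9 and Wt1 the Pd7 libraries lay below all Pd3 libraries, and so did those of Nr5a1, Gata4 and Gata6 without a call, while Nr5a2 lay above, beside 38.6% of genes without overlap. Nr2f2 (0.53 ± 0.18, adjusted p = 0.0714, limma), Nr0b1 (-0.37 ± 0.21, adjusted p = 0.238) and Foxl2 (-0.11 ± 0.15, adjusted p = 0.62) overlapped between the days and were not called. The Runx1 call was lost without the first or second control at Pd3 or the third at Pd7 (adjusted p = 0.0508 to 0.0513). The Lhx9 call was lost without the first or second control at Pd3 or the second or the third at Pd7 (adjusted p = 0.0977 to 0.112). The Wt1 call was held in 1 of the 6 such fits, that without the first control at Pd7 (adjusted p = 0.0168), and the other adjusted p values were 0.0756 to 0.137. The fits that lost any of these calls called 1.79% to 6.07% of all genes.

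In F1-HHcy, 1 of 10 members was called from Pd3 to Pd7, Lhx9, which fell from 8.33 ± 2.1 to 3.76 ± 0.67 FPKM (-0.95 ± 0.21, adjusted p = 0.0320, limma), beside 4.44% of 13998 genes. That call was held in 1 of the 6 fits leaving out 1 library, that without the first F1-HHcy library at Pd3 (adjusted p = 0.00438). The other adjusted p values were 0.0774 to 0.118, in fits that called 0.00% to 1.31% of all genes. Without the first F1-HHcy library at Pd3, Nr5a2, Gata6 and Runx1 were called as well, 4 of 10 in all, beside 14.2% of 13966 genes in that fit. Nr5a2 had log2 fold changes of 1.42 ± 0.47 in F1-Control and 1.55 ± 0.47 in F1-HHcy from Pd3 to Pd7, with no overlap in either diet (in F1-HHcy 6 of 10 members and 30.8% of genes had none), and missed the threshold in both (adjusted p = 0.0635 and 0.0735, limma). In F1-Control Nr5a2 was called without the first control at Pd7 (adjusted p = 0.0477, with 16.0% of genes called) and with all 18 libraries in 1 model (0.0494). Nr2f2 (0.38), Nr0b1 (-0.39), Foxl2 (0.12), Wt1 (-0.42), Gata4 (-0.35), Gata6 (-0.52), Runx1 (-0.59) and Nr5a1 (0.18) were not called in F1-HHcy (adjusted p = 0.0957 to 0.633). The median log2 fold change of the 10 members was -0.41 in F1-Control and -0.37 in F1-HHcy, beside -0.06 and -0.04 over all genes. The volcano plot criterion took in 4 members in F1-Control, Nr5a2 beside the 3 called, where 14.4% of genes passed, and 3 in F1-HHcy, Lhx9, Nr5a2 and Runx1, where 12.2% did.

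Levels at Pd21 are given beside those of Pd7 as a description, since the days were in different batches. In F1-Control, Foxl2, Nr5a1 and Nr5a2 were higher in all Pd21 libraries than in all Pd7 libraries, with means 1.99, 1.78 and 3.61 times as high, and Lhx9 was lower, at 0.430 times its Pd7 mean. Of all genes, 41.0% did not overlap between these groups. In F1-HHcy only Gata6 (1.72 times) and Runx1 (1.66 times) were without overlap, both higher at Pd21, beside 36.2% of genes. Nr5a2 in F1-HHcy had means of 68.3 ± 30 FPKM at Pd7 and 114 ± 41 FPKM at Pd21, and its libraries overlapped.

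The 27 partners and other gonadal regulators are factors that bind the members, such as Zfpm1, or act beside them in the gonad. Beside the list counts here and below, 3.07% of all genes tested were called by diet at Pd3, 11.9% at Pd7 and 2.23% at Pd21. By age, 12.6% were called in F1-Control and 4.44% in F1-HHcy. At Pd3, none of the 23 tested was called, and the smallest p values were those of Esr2, the estrogen receptor of granulosa cells (log2 fold change 1.44, adjusted p = 0.0535), and Tcf21, a stromal factor (1.02, adjusted p = 0.0581). At Pd7, 3 of 23 were higher and 3 were lower. The higher genes included Esr2 (1.37) and Foxo1, a forkhead factor of growing follicles (1.50), with adjusted p values of 0.00669 and 0.0219. The lower genes were Esr1, the estrogen receptor of theca and stroma (-0.78), and the Iroquois factors of early granulosa cells Irx3 (-1.40) and Irx5 (-0.88), with adjusted p values of 0.0253, 0.00513 and 0.0119. At Pd21 none of 23 was called, and Osr1 (-1.03, adjusted p = 0.305) and Nr2f1 (-0.58, adjusted p = 0.324) had the smallest p. From Pd3 to Pd7 in F1-Control, Esr2 and Tcf21 were among the genes that rose and Emx2, Irx3 and Zfpm1 fell, and in F1-HHcy Esr2 rose and Irx3 and Irx5 fell (adjusted p from 0.0064 to 0.0471, limma). The median log2 fold change of the 23 was 0.03 at Pd3, 0.25 at Pd7 and -0.01 at Pd21.

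Irx3, which had the smallest p of the partners list at Pd7, is given in more detail and does not stand for the list. Its level fell from a mean of 57.3 ± 6.9 FPKM at Pd3 to 26.2 ± 7.5 FPKM at Pd7 in F1-Control, and was 9.05 ± 1.0 FPKM at Pd7 in F1-HHcy. In F1-Control at Pd21, the other batch, it was 8.99 ± 1.7 FPKM. The ranges of the diets at Pd7 were 18.2 to 33.1 FPKM and 7.93 to 9.90 FPKM.

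The testis pathway list holds 7 genes of the testis pathway, which Foxl2 opposes in the ovary, with Sox9 and Dmrt1 at its head. Sox9 had means of 0.814 to 1.49 FPKM, and Dmrt1 of 0.0035 to 0.0796 FPKM over the 6 groups, while Dhh and Ptgds reached means of 10.1 and 25.3 FPKM in their highest groups. At Pd3 none of 4 tested genes was called, Fgf9 (-0.39, adjusted p = 0.186) and Sox8 (-0.19, adjusted p = 0.488) having the smallest p. At Pd7 1 of 4 was called, Ptgds, a prostaglandin D synthase, which was lower in F1-HHcy at 4.38 ± 1.3 FPKM beside 25.3 ± 8.5 FPKM (-2.27 ± 0.26, adjusted p = 0.00192, limma). At Pd21 none of 4 was called, Sox9 (-0.34) and Dhh (0.38) having the smallest p, each with an adjusted p of 0.9996. From Pd3 to Pd7, Dhh, a hedgehog ligand that granulosa cells also make, rose in F1-Control (1.48, adjusted p = 0.0290), and Ptgds fell in F1-HHcy (-1.80, adjusted p = 0.0197). Dhh was at 0.279 to 0.690 FPKM in F1-Control at Pd3 and met the filter only with libraries of other groups.

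The 18 known target genes include subunits and receptors of follicle hormones and the enzymes of steroid synthesis, among them genes that Nr5a1, Nr5a2, Gata4 or Foxl2 are known to bind, and 12 of them were tested at Pd3 and 18 at Pd7 and Pd21. At Pd3, 3 of 12 were higher in F1-HHcy and none lower. These were Amh, the anti-Mullerian hormone (2.08 ± 0.43 and 48.2 ± 46 FPKM, log2 fold change 3.47, adjusted p = 0.0453), Inha, the inhibin alpha subunit (34.6 ± 0.46 and 132 ± 70 FPKM, 1.78, adjusted p = 0.0338), and Gja1, the gap junction protein of granulosa cells (41.6 ± 6.7 and 129 ± 59 FPKM, 1.52, adjusted p = 0.0480). Without the first F1-Control library limma called 0 of 13071 genes at Pd3, so these 3 calls were lost there. At Pd7, 14 of 18 had at least 1 FPKM in all 6 libraries, and 5 of these were higher and none lower. They were the steroid synthesis genes Hsd3b1 (1.71), Scarb1 (1.00) and Star (0.84), and Inha (1.40) and Gja1 (1.30). The steroid synthesis genes Cyp17a1 (5.34) and Cyp11a1 (3.85), the luteinizing hormone receptor Lhcgr (2.64) and the inhibin subunit Inhba (1.47) were called higher as well, but met the filter only through F1-HHcy, where they were high, and are not counted. The adjusted p values of these 9 genes were 0.00144 to 0.0497. At Pd21 none of 18 was called, and Kitl (0.36) and Hsd3b1 (0.46) had the smallest p. From Pd3 to Pd7, 5 of 18 were called higher in F1-Control (Amh, Fshr, Gja1, Hsd17b1 and Inha) and 1 lower (Kitl), and in F1-HHcy 6 were called higher at Pd7 (Scarb1, Star and the 4 genes set apart above). Of these, Fshr (0.132 to 0.495 FPKM) and Hsd17b1 (0.871 to 2.36 FPKM) did not meet the filter within F1-Control at Pd3. The same held within F1-HHcy at Pd3 for the 4 genes set apart. These genes met the filter only with libraries of other groups. The list shares Amh, Inha and Gja1 with the granulosa markers and Cyp17a1, Cyp11a1, Hsd3b1, Star and Lhcgr with the theca markers given next.

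Some marker lists of the ovary's cell types also differed between the diets. The summed level of 10 granulosa markers was 185 to 204 FPKM in F1-Control and 271 to 658 FPKM in F1-HHcy at Pd3, and 293 to 644 and 710 to 1215 FPKM at Pd7, so that the diets did not overlap on either day, and 3 of 8 and 3 of 10 tested markers were higher with none lower. The 6 theca and steroidogenic markers summed to 98.4 to 152 FPKM in F1-Control and 71.3 to 679 FPKM in F1-HHcy at Pd3, and to 216 to 449 and 1136 to 1195 FPKM at Pd7. Most of each sum came from Hsd3b1 alone, so the sum mainly follows that gene. Its means in F1-Control and F1-HHcy were 114 and 335 FPKM at Pd3 and 301 and 947 FPKM at Pd7. Hsd3b1 and Star were called higher at Pd7, and the 4 other markers were called too but reached 1 FPKM in all 3 libraries of F1-HHcy only, so that they were tested through the group in which they were high. The 6 stroma markers summed to 638 to 859 and 1115 to 1349 FPKM at Pd3, with 2 of 6 higher, and overlapped at Pd7. The 7 surface epithelium markers overlapped at Pd3, with none called, and summed to 481 to 812 FPKM in F1-Control and 215 to 413 FPKM in F1-HHcy at Pd7, where 5 of 7 were lower. At Pd21 they summed to 370 to 500 FPKM in F1-Control and 128 to 250 FPKM in F1-HHcy, again without overlap, and Krt18 was lower (adjusted p = 0.0491, limma). The part of these cell types in the differences of Nr5a2, Nr2f2, Lhx9 and Runx1 was not tested. The third F1-HHcy library at Pd3 had the lowest granulosa and theca sums of its group, 271 and 71.3 FPKM, and also its lowest Nr5a2 and Nr2f2 levels. Its stroma, oocyte, surface epithelium, smooth muscle, leukocyte, erythroid and adipocyte sums were the lowest of its group as well. Its endothelium, oviduct and multiciliated, and adrenal cortex sums were not.

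Other lists give further limits. The 5 erythroid markers summed to 3887 to 11109 FPKM in F1-Control and 778 to 1107 FPKM in F1-HHcy at Pd3, and to 924 to 5727 and 287 to 502 FPKM at Pd7, all 5 being lower on both days. With the hemoglobin and mitochondrially encoded genes taken out of the scaling, Nr2f2 at Pd3 had a log2 fold change of 0.87 and an adjusted p of 0.0508. At Pd21 the 6 oviduct and multiciliated markers summed to 212 to 819 FPKM in F1-Control and 8.73 to 13.9 FPKM in F1-HHcy, while they summed to 8.35 to 29.6 FPKM over the Pd3 and Pd7 libraries. All 6 were called lower at Pd21, but only Tppp3 had at least 1 FPKM in all 6 libraries of that day. At Pd7, of 4 tested, Tppp3 was called higher and Pax8 lower, the latter being below 1 FPKM in some libraries. At Pd3 none of 5 was called. The part of these markers in the Pd21 comparisons was not tested. The 11 oocyte markers summed to 750 to 981 FPKM in F1-Control and 1209 to 1690 FPKM in F1-HHcy at Pd3, with 2 called higher. At Pd7 they summed to 1360 to 2214 FPKM in F1-Control and 778 to 1306 FPKM in F1-HHcy, with 1 called higher and 6 lower. The oocyte sums thus did not overlap between the diets on either early day, in opposite directions, and they overlapped at Pd21. The part of the oocytes in the differences of the members was not tested. Of the remaining lists, smooth muscle had 1 of 5 lower at Pd21, leukocytes 1 of 4 lower at Pd7, adipocytes 2 of 3 higher at Pd7 that met the filter only through F1-HHcy, and endothelium none called by diet. The 4 endothelium markers summed to 25.7 to 35.0 FPKM in F1-Control and 50.0 to 59.5 FPKM in F1-HHcy at Pd3, without overlap, and all 4 had log2 fold changes above 0 (median 0.60). They overlapped between the diets at Pd7 and Pd21, and their part in the Nr2f2 difference at Pd3 was not tested. The 4 adrenal cortex markers summed to 5.24 FPKM at most and were not tested in any comparison, with Cyp11b2 at 0 in all libraries of 5 of the 6 groups.

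**Figure D4:**
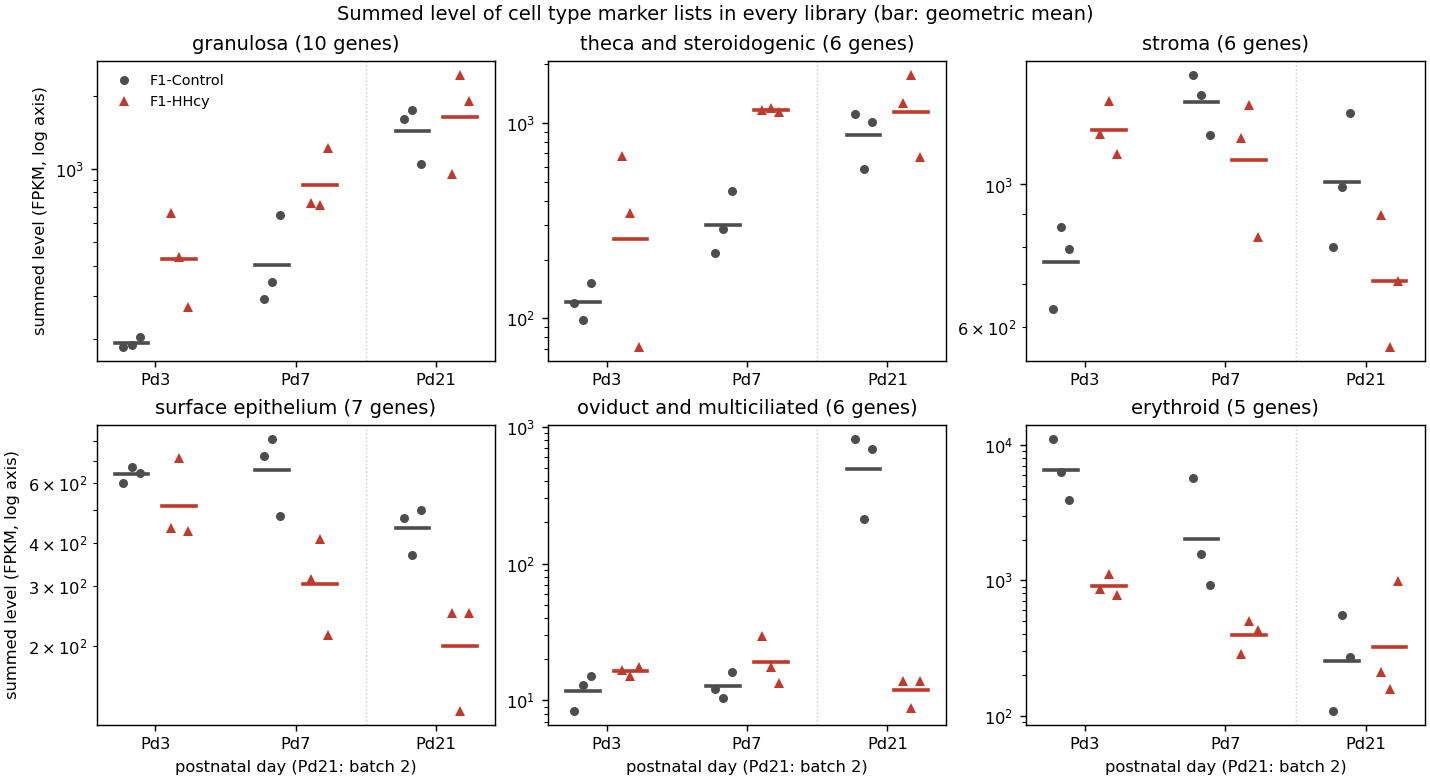
Summed FPKM (log axes) of 6 marker lists in every library by day, for F1-Control (grey circles) and F1-HHcy (red triangles), with bars at the geometric mean of 3 libraries. The granulosa sums did not overlap between diets at Pd3 and Pd7, and the oviduct and multiciliated sums of 212 to 819 FPKM appeared in the Pd21 controls, above all other libraries.

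Over the 18 libraries, the genes most like each member in shape were found by the root mean square difference of log2(FPKM + 1) values, each gene centred on its own mean, among 14607 genes. Nr5a2 had Smoc2 (0.23) and Inha (0.25) as its nearest genes, small beside its own root mean square of 1.40 about its mean. Lhx9 was nearest to Lypd6 (0.22) and Cttnbp2 (0.24), with its own at 0.73, and Nr2f2 to Adamts2 and Eng (both 0.18), with its own at 0.50. Wt1 was nearest to Mtss2 (0.16) and Cbx7 (0.16), and Runx1 to Wbp11 (0.20) and Cecr2 (0.21), with their own at 0.48 and 0.46. The other members varied by 0.29 to 0.51 about their means, and their nearest genes were Pnpla2 and Sall2 for Foxl2, Prkcsh and Tbc1d22b for Nr5a1, Mta2 and Tcf3 for Gata4, Efna1 and Spast for Gata6, and Med10 and Ythdf2 for Nr0b1, at differences of 0.12 to 0.25. No member was among the nearest genes of another member.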

How the data were processed

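Whole-ovary RNA was sequenced from stranded poly-A libraries. Each of the tables the authors deposited pairs gene symbols with values of 1 library, read here as FPKM because 99.996% of 27294 genes gave whole fragments for a single gene length. The submitters' processing notes name FastQC 0.11.9, Trimmomatic 0.39, STAR 2.7.9a, featureCounts 2.0.1, DESeq2 1.36.0 and GRCm38/mm10, and the annotation and strand setting are not given in the sources used here. Fits used limma 3.58.1 with a trend in R 4.3.3 on log2(FPKM + 1), keeping genes that reached 1 FPKM in 3 or more libraries, with Benjamini-Hochberg adjustment over all genes tested. Each diet comparison used the 6 libraries of its day, the age and Pd3 to Pd7 interaction fits the 12 libraries of batch 1, and the Pd7 to Pd21 interaction all 18. Levels are means ± SD, and fold changes carry SE. The scripts were tested on simulated data.

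The members and lists were chosen with earlier results of these data known. All members were named in the diet and age comparisons and, in part as a range, in the interactions. List genes were named when called, or else the 2 with the smallest p (a few called genes are not reported here), and 2 nearest genes were named per member. Same-numbered libraries were taken as paired where every correlation of their deviations from the group means was over 0.1. This held for Pd3 with Pd7 in F1-Control (0.119 to 0.26), although these are different pups, and for no other groups. Alternatives were a pseudocount of 0.1, no filter, the criterion of the study's volcano plots, a replicate block, other scalings, limma-voom on recovered fragments, all libraries in 1 model, and leaving out each library. Sequences and positions are from RefSeq (GRCm38.p6), where promoters of 6 of the 10 members were found (Wt1, Gata4, Nr5a1 and Gata6 had none), and exon overlaps are from GENCODE M21.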

Additional observations from a re-analysis of the deposited data

Results flagged for a closer look

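Nr5a1 had diet differences in opposite directions at Pd3 and Pd7, with all 3 F1-HHcy libraries below all controls at Pd3 and above all of them at Pd7. The difference between the days was 0.59 ± 0.19 on the log2 scale and did not pass the interaction test (adjusted p = 0.167, limma). Leaving out each library gave 0.43 to 0.68.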

How the results depend on the processing

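Counts of called members, beside 1 at Pd3, 2 at Pd7 and 0 at Pd21 by diet and 3 in F1-Control and 1 in F1-HHcy by age, changed as follows. With no filter on low values they were 0 at Pd3 (0.00% of genes), 0 at Pd7 (0.329%), 1 in F1-Control (2.36%) and 0 in F1-HHcy (0.824%). By the study's criterion they were 3 at Pd3 (9.74% of genes) and 3 at Pd7 (16.4%). By age they were 4 in F1-Control (14.4%) and 3 in F1-HHcy (12.2%). That criterion also gave 1 in the Pd3 to Pd7 interaction (11.6%) and 2 in the Pd7 to Pd21 interaction (15.3%). The alternatives of the Pd7 to Pd21 interaction were added after the data were seen. Without the mitochondrially encoded and hemoglobin genes 0 were called at Pd3 (3.06% of genes). With the replicate block 0 were called at Pd3 (0.00753% of genes), where the numbers do not pair the diets (same-numbered correlations of -0.181 to -0.119 at Pd3, -0.101 to 0.085 at Pd7 and -0.314 to -0.135 at Pd21). The block changed 2 other calls, Lhx9 at Pd7 (adjusted p = 0.0439, 14.1% of genes called) and Wt1 by age in F1-Control (12.9%). By age in F1-Control, Nr2f2 was called with median-ratio scaling (adjusted p = 0.0437), Nr5a1 without the mitochondrially encoded and hemoglobin genes (0.0485) and Nr5a2 with all 18 libraries in 1 model (0.0494), and Wt1 was not called with the first or the last of these (0.0575 and 0.108). Leaving out each library gave 0 to 4 at Pd3 (0.00% to 21.6% of genes) and 0 to 2 at Pd7 (3.78% to 14.1%). By age it gave 0 to 4 in F1-Control (1.79% to 16.0%) and 0 to 4 in F1-HHcy (0.00% to 14.2%). It gave 0 at Pd21 (0.00770% to 1.40%) and in both interactions (0.00% to 3.21% and 1.30% to 8.03%). These fits turned the sign of Wt1 (-0.25 to 0.14) and Runx1 (-0.32 to 0.10) at Pd7, of Foxl2 (-0.28 to 0.44), Nr5a1 (-0.23 to 0.0076), Wt1 (-0.53 to 0.23), Gata4 (-0.14 to 0.30), Lhx9 (-0.27 to 0.15) and Nr2f2 (-0.23 to 0.21) at Pd21, and, among the interaction estimates of Nr5a1, Nr5a2, Nr2f2 and Gata6 given above, of Nr5a2 (-0.31 to 0.65) and Nr2f2 (-0.30 to 4.2e-05) in the Pd3 to Pd7 interaction. Fits without a library have fewer samples, and without the filter more genes are tested. The cause of the other changes was not tested.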
